A study of Mus musculus with 36 samples.

Results

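The cells described here were Klk1-positive striated duct cells of the mouse submandibular gland, taken from single-cell RNA libraries made by Drop-seq, in which cells are caught in droplets with barcoded beads and transcripts are counted as unique molecular identifiers (UMIs). A cell was chosen when it held UMIs in 4 or more of 7 duct genes (Fxyd2, Cox7a1, Ppargc1a, Cldn4, Atp1b1, Wfdc2 and Krt18), at least 2 Klk1 UMIs, fewer than 15 Egf UMIs per 10000, and no UMI of Ascl3, Esp4, Krt14 or Krt5. In 26 glands, 2386 of 23346 cells met this rule, 1287 in control and 1099 in double-mutant glands. Because these measured values chose the cells, the levels of the genes in the rule, and all contrasts of the chosen cells with other cells, are descriptions without a test.

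The libraries came from 12 control and 14 double-mutant glands, 1 gland per library, and every group held both sexes. There were 6 control and 7 double-mutant glands at postnatal day 40 (P40) and again at P90. Double-mutant mice carried a gain-of-function allele of β-catenin and a loss-of-function allele of Bmpr1a, a BMP receptor, both recombined by K14-Cre, and they develop salivary gland squamous cell carcinoma. In control mice K14-Cre was combined with R26-EYFP alone, a reporter switched on by Cre that the parents of the double mutants had as well, and all mice were on a C57BL/6 background. K14 drives Cre in basal epithelial cells, and no cell with a Krt14 UMI was allowed among the chosen cells. Live single cells were sorted and fixed in methanol. A further 4 glands at P70, 2 of each genotype, were profiled from fresh cells by CITE-seq, which reads RNA and antibody-tagged surface proteins of the same cell. Of these, the 2 double-mutant glands were labelled female, and the control glands were 1 male and 1 female.

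Striated ducts join the secretory units of the gland to its excretory ducts and modify the primary saliva: sodium is taken up through epithelial sodium channels at the lumen and pumped out by Na,K-ATPase at the deeply infolded basal membrane. The infoldings are packed with mitochondria, which give the duct its striped look and supply the pump with ATP. Tissue kallikrein, encoded by Klk1, is a serine protease stored and secreted by duct cells. In rodents part of the duct develops under androgens into the granular convoluted tubule, which secretes growth factors such as Egf and a large family of Klk1b kallikreins.

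Glands gave 777537 to 7013325 UMIs each, and the chosen cells of a gland held 12180 to 536899 UMIs in the 25 glands with 10 or more of them. Double-mutant P90 replicate 4 had 2 chosen cells and was left out of all fits across genes, which therefore used 13 double-mutant and 12 control glands. In 2 double-mutant libraries, P40 replicate 1 and P90 replicate 5, the sex chromosome genes went against the sex label, and results that rest on them are given with and without them where they differ. No barcode of a chosen cell occurred in a second gland, and 14 barcodes among all cells did. Control glands of P40 came from other batches than those of P90, so stage and batch cannot be told apart in controls. A gland is a mixture, and a lower level in the other cells of a gland can mean fewer cells of a type or less RNA per cell, which cannot be told apart.

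The steps of the rule took 4116 cells with 4 or more of the 7 duct genes to 3454 with 2 or more Klk1 UMIs, to 2884 under the Egf limit, and to 2386 without a barred gene. Of these, 740 cells held UMIs in 4 of the duct genes, 941 in 5, 540 in 6 and 165 in all 7. Chosen cells with 4 duct genes gave a median 13.95% of their UMIs to Klk1 at a median depth of 1222 UMIs. The 809 cells left out with 3 duct genes gave a median 0.197% at a median depth of 3007 UMIs. At the Klk1 limit, 164 chosen cells had 2 to 5 Klk1 UMIs and 367 cells with 0 or 1 were left out, and at the Egf limit 297 chosen cells had 5 to under 15 per 10000 and 101 cells left out had 15 to under 25.

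Klk1 was the most abundant transcript of the chosen cells, as the rule favours. It took 2.53% to 22.4% of their UMIs over the 25 glands with a median of 12.3%. In control glands the share ran from 6.66% to 22.4% with a median of 13.03%, and in the 14 double-mutant glands from 2.53% to 16.3% with a median of 9.70%, so the genotypes overlapped over most of their range. Cells within a gland also varied widely. In control P90 replicate 6, where the median cell gave 24.2% of its UMIs to Klk1, 10% of cells lay under 2.71% and 10% above 37.7%.

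The label was checked against striated duct markers that the rule did not use. The sodium channel subunits Scnn1b and Scnn1g were at mean levels of 158 and 49.96 CPM (the UMIs of a gene scaled to a common total of UMIs in the chosen cells of a gland), with median ratios to the other cells of the same gland of 12.2 and 13.2. Tfcp2l1, a transcription factor of kidney and salivary ducts, was at 688 CPM and higher in 25 of 25 glands. The simple-epithelium keratins Krt7 and Krt8 and the tight-junction gene Cldn3 were also higher in 25 of 25 glands, by medians of 6.17, 3.59 and 3.02. Esrrg, a nuclear receptor of oxidative tissues, was higher in 23 of 25 and the potassium channel gene Kcnma1 in 17 of 25 glands. No UMI of Klk10 was found among 5051184 UMIs of the chosen cells, which allows up to 0.594 CPM (counting error only). Of these 9 markers 8 were detected with a median ratio above 1. That is no larger a share than over all genes at 10 CPM or more, 6707 of 7440, whose median ratio was 1.78. Kcnma1, at 1.61, lay below that median, and the other detected markers lay above it, with Esrrg at 4.21 and Tfcp2l1 at 6.62.

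Markers of other cell types were low but acinar secretory transcripts were present. Of 20 listed immune markers 19 were in the tables, and their summed level in the chosen cells was 0 to 927 CPM (median 116.8 CPM) against 34.2 to 5311 CPM in the other cells. It was lower in the chosen cells in 20 of 25 glands, and Cd3e, Cd79a and Mzb1 had no UMI. The 8 endothelial markers summed to 0 to 221 CPM and the 9 fibroblast and pericyte markers to 0 to 312 CPM. The acinar list summed to 0.396% to 16.1% of the UMIs of the chosen cells and to 3.62% to 36.5% of those of the other cells, and it was lower in the chosen cells in 25 of 25 glands. Spt1 and Prol1, which encode abundant saliva proteins, reached means of 80288 and 14146 CPM in the chosen cells, at median ratios of 0.312 and 0.356. Spt1 was not part of the list: its lowest gland was at 5738 CPM and the lowest sum of the list was 3964 CPM. The percentages of the list therefore leave out a large part of the saliva transcripts in the chosen cells. The part of free RNA or of doublets in these transcripts was not tested.

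The family of Klk1 lies on chromosome 7, and its members are close in sequence, so reads may have been split between them and a value for a single Klk1b gene is uncertain. RefSeq promoters (GRCm38.p6) were found for 13 Klk1b genes, and the longest run of bases that the stretch before the start site shared with that of Klk1 was 13 to 31 bases. The 250 bases before the start of Klk1 (chr7:44225110-44225359, plus strand) and of Klk1b5 (chr7:44216224-44216473, plus strand) are shown because Klk1 chose the cells and Klk1b5 was the 1 Klk1b gene among the 20 genes of highest ratio to other cells, with their longest shared run of 18 bases in capitals.
Klk1: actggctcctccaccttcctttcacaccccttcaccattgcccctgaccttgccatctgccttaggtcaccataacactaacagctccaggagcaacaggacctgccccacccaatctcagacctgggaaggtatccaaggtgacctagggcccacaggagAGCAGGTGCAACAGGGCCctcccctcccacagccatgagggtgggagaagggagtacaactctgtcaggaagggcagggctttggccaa
Klk1b5: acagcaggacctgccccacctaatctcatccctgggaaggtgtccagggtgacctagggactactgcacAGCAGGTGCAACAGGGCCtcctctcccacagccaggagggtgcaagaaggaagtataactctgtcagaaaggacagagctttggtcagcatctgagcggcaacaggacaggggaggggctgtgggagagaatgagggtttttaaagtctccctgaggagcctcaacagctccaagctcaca

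RNA of the respiratory chain was the broadest feature of these cells. Transcripts encoded by the mitochondrial genome took 4.54% to 12.02% of the UMIs of the chosen cells and 0.874% to 5.16% of those of the other cells, and were higher in 25 of 25 glands with a median ratio of 3.51. The nuclear genes of the 5 respiratory complexes took 3.13% to 7.72% against 0.729% to 1.61%, again higher in 25 of 25 glands, with a median ratio of 3.94. The whole range of the nuclear genes in the chosen cells lay above that in the other cells. The limit on mitochondrial UMIs, under 15% per cell, capped the first of these values.

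The higher level was shared by all complexes. All 37 complex I genes at 10 CPM or more had a median ratio above 1, with a median over the genes of 3.52. The same held for 14 of 14 genes of complexes II and III, 12 of 12 of complex IV, which reduces oxygen, and 18 of 18 of complex V, the ATP synthase, with medians of 4.25, 4.82 and 3.87. Over all 7440 genes at this level 6707 had a ratio above 1 and the median was 1.78, so ratios above 1 were common and the complexes stood higher than the typical gene. Genes of the citric acid cycle and fatty acid oxidation had a median ratio of 3.86 (29 of 29 above 1) and glycolysis genes of 3.62 (16 of 17). Cytosolic ribosomal protein genes, for comparison, had a median of 1.38.

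**Figure D1:**
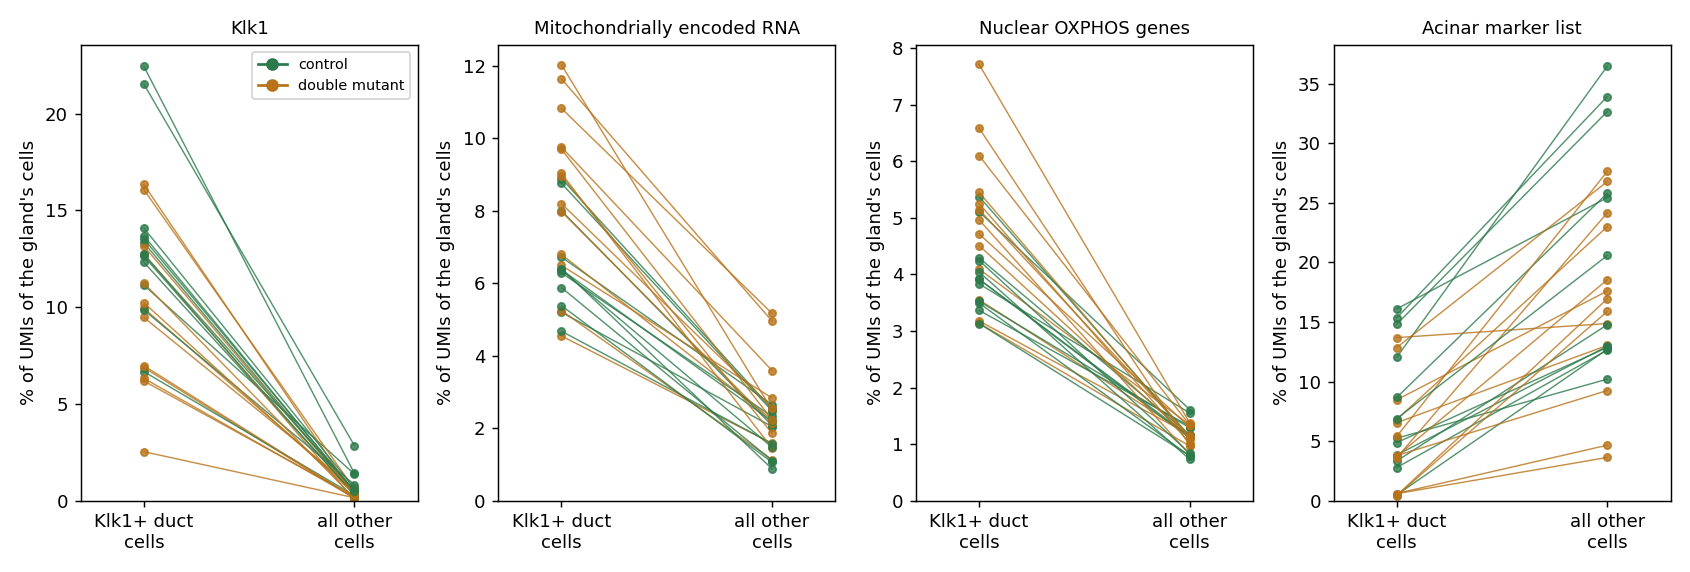
Percent of UMIs (vertical axes) given to Klk1, to mitochondrially encoded RNA, to nuclear oxidative phosphorylation genes and to the acinar marker list, in the Klk1+ duct cells and in all other cells of the same gland; each line joins the values of 1 of 25 glands. In every gland the first 3 values were higher in the Klk1+ duct cells and the acinar list was lower. Spt1 is not part of that list.

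Among the 20 genes with the highest ratios to other cells, 3 were ion transport genes. Of 40 listed duct ion transport genes 30 reached 10 CPM, and 25 of these had a ratio above 1, no larger a share than the 6707 of 7440 over all genes, with a median over the listed genes of 2.87. Kcnj16, an inward rectifier potassium channel subunit, was at 33.5 to 331 CPM with a median ratio of 14.3 and was higher in 24 of 25 glands. Scnn1b followed at 12.2, and Atp6v0d2, a subunit of the vacuolar proton pump, was at 71.6 to 389 CPM with a ratio of 8.76 in 25 of 25 glands. These genes move potassium, sodium and protons.

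Duoxa2 had the highest ratio of all, 83.8, at a mean of 237 CPM and a range of 0 to 1282 CPM over glands, and was higher in 24 of 25. It encodes the maturation factor of the hydrogen peroxide-producing dual oxidase of secretory epithelia. Among secreted products, Crisp3 was at 1743 to 14904 CPM (ratio 8.94, 23 of 25 glands), Klk1b5 at 903 to 20889 CPM (ratio 13.4, 25 of 25) and the secretoglobin Scgb1c1 at 0 to 534 CPM (ratio 15.7, 24 of 25). Crisp3 encodes a cysteine-rich secretory protein.

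Metabolic and signalling genes made up most of the rest. Cyp2f2, a cytochrome P450 of secretory epithelia, was at 703 to 3366 CPM, with ratios from 4.87 to 41.3 in the 25 glands. Ldhb, the lactate dehydrogenase subunit of oxidative tissues, was at 143 to 545 CPM with a median ratio of 9.34. Elovl7, which lengthens fatty acids, had a ratio of 8.67 and Arg1, arginase, of 10.7. Wnt4, a Wnt ligand, was at 45.9 to 419 CPM (ratio 10.8, 25 of 25 glands), and Slit2, a guidance ligand, at 14.5 to 265 CPM (ratio 10.6, 25 of 25). In the 4 CITE-seq glands, whose cells the ranking did not use, Kcnj16, Wnt4, Arg1, Cyp2f2, Ldhb, Elovl7, Atp6v0d2, Crisp3 and Klk1b5 were higher in the chosen cells in 4 of 4, Duoxa2 and Scnn1b in 3 of 4, and Slit2 and Scgb1c1 in 2 of 4.

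**Figure D2:**
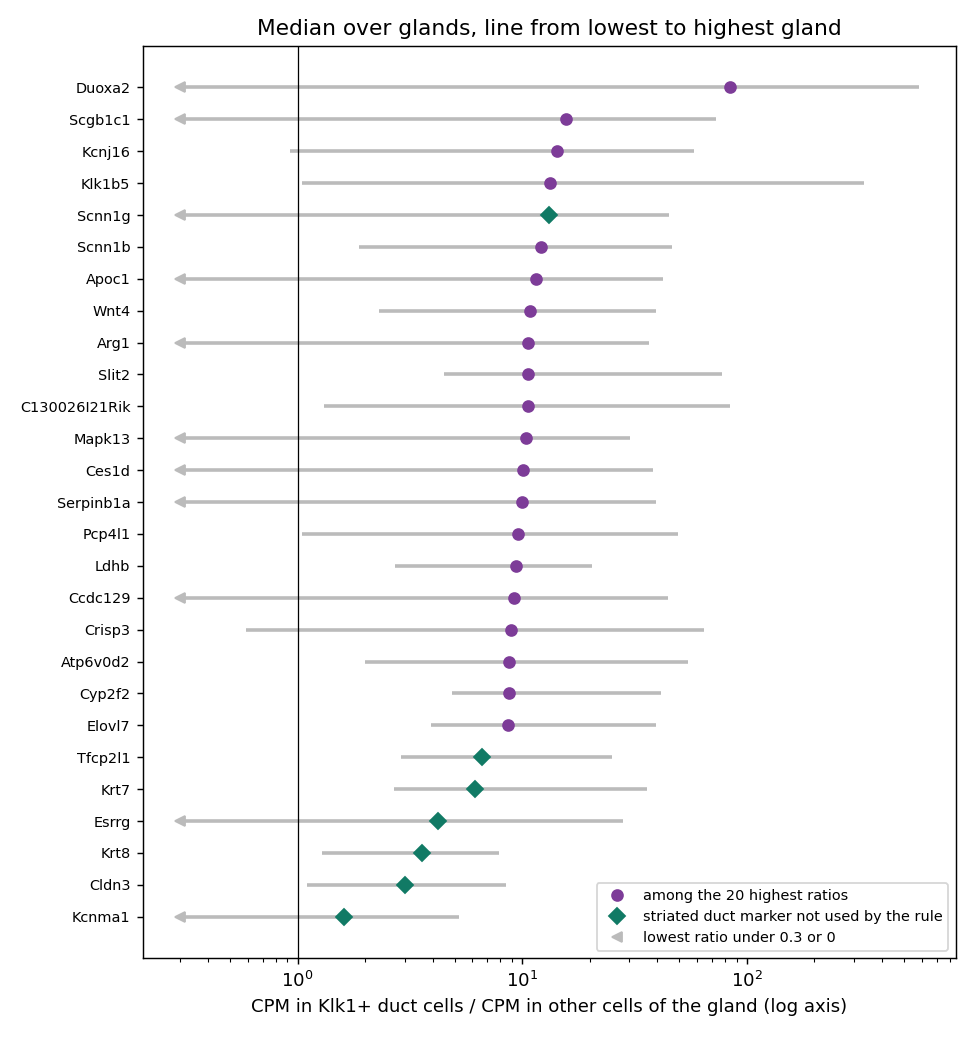
Ratio of CPM in the Klk1+ duct cells to CPM in the other cells of the same gland (horizontal log axis), with the median over 25 glands as a point and the lowest to highest gland as a line, for the genes of highest ratio and for striated duct markers that the rule did not use. Medians ran from 1.61 for Kcnma1 to 83.8 for Duoxa2, and triangles mark lines whose lowest gland had a ratio under 0.3 or 0. Klk10, which had no UMI in the chosen cells, is not drawn.

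Promoters of the leading genes were searched for TNAAGGTCA on both strands, the half-site bound by estrogen-related receptors such as Esrrg, the partners of Ppargc1a. It was present in 340 of 27025 promoters of 300 bases (1.258%), in 3 of 68 promoters of the respiratory complex genes (Atp5g3, Ndufb4 and Sdhd) and in 2 of 14 of the genes with the highest ratios, Kcnj16 and Cyp2f2. None of the 7 promoters found for the genes of the rule held it. The 250 bases before the start are shown for the 2 leading genes that held the motif, with the match in capitals: Kcnj16 at chr11:110967783-110968032 (plus strand, match on the opposite strand) and Cyp2f2 at chr7:27119705-27119954 (plus strand). A match is a string of letters and not evidence of binding.
Kcnj16: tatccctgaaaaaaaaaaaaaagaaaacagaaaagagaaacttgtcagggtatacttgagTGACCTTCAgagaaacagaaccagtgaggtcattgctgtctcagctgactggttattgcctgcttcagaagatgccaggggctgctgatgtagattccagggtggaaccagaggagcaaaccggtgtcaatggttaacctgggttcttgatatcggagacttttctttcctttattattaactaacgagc
Cyp2f2: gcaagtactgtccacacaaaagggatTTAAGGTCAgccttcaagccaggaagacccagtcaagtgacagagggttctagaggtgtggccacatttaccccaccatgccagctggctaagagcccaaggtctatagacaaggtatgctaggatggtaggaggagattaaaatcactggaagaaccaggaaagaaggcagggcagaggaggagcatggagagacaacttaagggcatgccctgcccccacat

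A population close to the chosen cells by the rule was the Egf-high duct cells, which met the same rule except that Egf was at or above its limit. Likeness over all genes was not measured. In the 12 glands with 10 or more of both (8 labelled male), 1213 chosen cells were set beside 492 Egf-high cells. Besides Egf, which the rule used, products of the granular tubule were lower in the chosen cells in 12 of 12 glands: the summed Klk1b genes were at 12811 to 125659 CPM against 109105 to 461347 CPM (median ratio 0.159), and Ren1, renin, at 3.46 to 9350 against 9.46 to 79430 CPM.

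Mitochondrial genes ran the other way. Mitochondrially encoded RNA was higher in the chosen cells in 12 of 12 glands (median ratio 1.59) and the nuclear respiratory genes in 11 of 12 (1.53). Cox7a1, Ppargc1a and Fxyd2, 3 genes of the rule that both populations had to satisfy alike, were higher in 12, 12 and 10 of 12 glands. Klk1 itself had a median ratio of 1.501 and was higher in 9 of 12 glands. The Klk1b genes took a median of 36460 CPM in the chosen cells and 287864 CPM in the Egf-high cells. A larger share for them lowers the CPM of all other genes, and its part in the ratios of this paragraph was not tested.

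Across the 25 glands, the gene whose level followed that of Klk1 most closely among 1045 genes was Plet1, an epithelial surface protein of progenitor cells, with a Spearman correlation of 0.80. Atp5b, an ATP synthase subunit, Slc25a5, the mitochondrial ADP/ATP carrier, Jun and Ppib followed at 0.69, 0.68, 0.66 and 0.66. The points share library depth and the CPM total, of which Klk1 takes a large part, so these values are descriptions.

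Surface proteins were read in 17, 17, 7 and 3 cells chosen by the same rule in the 4 CITE-seq glands. Shares of chosen cells were 2.53% and 2.34% in the control glands and 1.10% and 0.604% in the double-mutant glands, with exact 95% binomial intervals of 1.48% to 4.02%, 1.37% to 3.71%, 0.442% to 2.25% and 0.125% to 1.75%. Such intervals measure the counting error of cells only and not the spread between glands. Antibody counts came from 17, 17, 7 and 2 of the cells and were scaled to 1000 counts per cell. Of 61 antibodies 6 were higher in the chosen cells in 4 of 4 glands. Others were lower in 4 of 4, among them IAIE_MHC and CD11b at mean ratios of 0.210 and 0.213, and the control antibody mIgG2a at 0.728. With a fixed total per cell, a larger share for some antibodies lowers the values of the rest, and that part was not tested.

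EpCAM, the pan-epithelial adhesion protein, was at 153 and 131 in the chosen cells of the control glands and at 130 and 80.3 in those of the double-mutant glands, against 42.4, 38.1, 13.4 and 12.03 in the other cells. CD104, the β4 integrin of epithelial cells on a basement membrane, was at 50.04, 55.4, 35.0 and 60.7 against 19.9, 20.5, 9.48 and 9.32. Ly6A_E, CSF1R_CD115 and Lamp1 had mean ratios of 3.84, 4.19 and 2.12, and CD29 and Notch3, next in rank, were higher in 3 and 2 glands. The 4 control antibodies had ratios of 0.728 to 0.980. For CSF1R_CD115 the median cell of double-mutant replicate 1 was at 5.52 against a mean of 42.6, so single cells set that value, and no test was made with 4 glands. By raw counts per cell, the lowest ratios over the 4 glands were 3.48 for EpCAM, 2.16 for CD104 and 1.92 for Ly6A_E. They were 0.375 for CSF1R_CD115 and 0.765 for Lamp1, which were then not higher in every gland, and 1.22 for CD29, which was.

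The share of chosen cells among all cells of a gland ran from 0.234% to 29.4%, with a median of 7.80% over 26 glands. Double-mutant glands held 0.234%, 6.47% and 24.95% (lowest, median and highest) and control glands 4.03%, 8.12% and 29.4%. Means were 8.43% ± 7.64 (SD, n = 14) and 11.8% ± 8.41 (SD, n = 12), a difference of -3.39 percentage points with p = 0.288 (permutation test, two-sided, adjusted p = 0.387 over 4 share tests). The ranges overlapped, and 5 double-mutant glands, at 0.234% to 2.81%, lay below the lowest control gland. Within batches that held both genotypes the difference was -2.20 points. Without the Egf limit it was -6.74 points, with p = 0.0344 in the permutation test and an adjusted p of 0.138.

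Control glands differed more by sex. Female control glands held 7.46% to 29.4% chosen cells with a median of 16.3%, and male control glands 4.03% to 11.5% with a median of 5.81%. The ranges overlapped, and the difference of -10.5 points had p = 0.0173 in an exact two-sided permutation test and an adjusted p of 0.0693, above 0.05. In the 3 control batches with both sexes the male value was the lower one each time: 4.26% against 19.6%, 11.5% against 24.8%, and 8.11% against 8.14% and 12.95%.

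The Egf limit of the rule bears on sex, because Egf-high cells are more frequent in males and were barred. As a share of duct cells, chosen cells made up 50.9% to 81.8% in females and 23.1% to 44.5% in males, without overlap (exact permutation test, adjusted p = 0.00866). Egf-high cells stayed among the duct cells but could not be chosen, so this test cannot separate sex from the Egf limit. In male control P90 replicate 4, 28 of 121 duct cells were chosen and 76 were Egf-high. In female control P90 replicate 2, 292 of 357 were chosen and 25 were Egf-high. With no Egf limit the difference in the share of all cells shrank to -5.01 points (exact permutation p = 0.240). In double-mutant glands the male mean was 2.23 points above the female mean (exact permutation p = 0.599), and 1.71 points below it without the 2 glands of contradicted sex.

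No difference by stage was detectable. Control glands held 11.7% ± 10.5 at P90 and 11.9% ± 6.79 at P40 (SD, n = 6 each, exact permutation p = 0.981). Double-mutant glands held 6.19% ± 5.42 at P90 and 10.7% ± 9.24 at P40 (SD, n = 7 each, exact permutation p = 0.290). This difference of -4.49 points shrank to -1.28 points without the 2 glands of contradicted sex (exact permutation p = 0.738). In batches that held both stages the P90 glands were at 1.24% (batch 11, P40 at 1.69%, 8.41% and 24.95%), 2.81% (batch 12, P40 at 20.4%) and 11.03% (batch 13, P40 at 1.54% and 4.50%), so the direction differed between batches. The batch 11 glands at 1.24% and 24.95% were the 2 of contradicted sex, and leaving them out leaves batch 11 without a P90 gland.

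The limit on mitochondrial UMIs removed many cells of this kind. A further 1196 barcodes met the rule but had 15% or more mitochondrial UMIs, which is 33.4% of all that otherwise qualified. Per gland the share left out was 43.2% ± 26.1 in double-mutant (SD, n = 13) and 17.5% ± 11.4 in control glands (SD, n = 12), with p = 0.00492 in a two-sided permutation test added after the values were seen. It was also higher in double-mutant glands in each of 4 batches, from 16.3% against 10.8% in batch 8 to 62.6% against 6.76% in batch 13. Without this limit the genotype difference in the share of cells was -1.37 points.

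**Figure D3:**
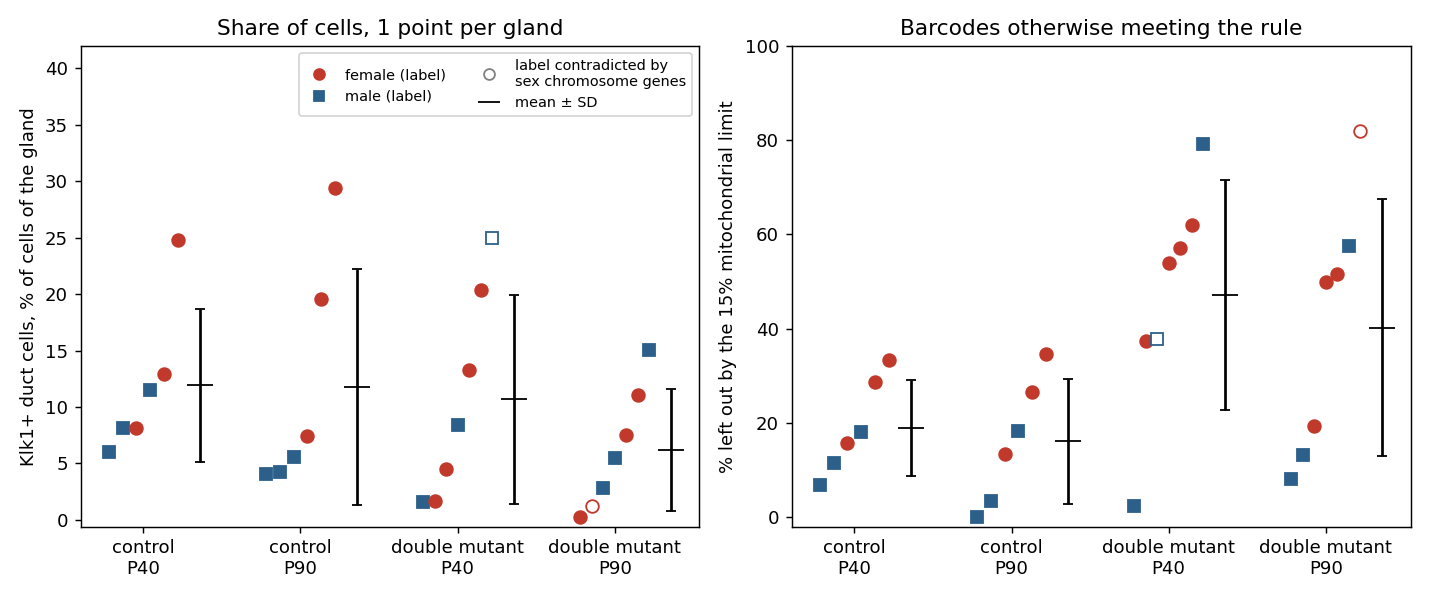
Left, percent of a gland's cells that were Klk1+ duct cells; right, percent of barcodes otherwise meeting the rule that were left out by the 15% mitochondrial limit. Each point is 1 gland, marked by sex label, with mean ± SD beside each group; female control glands held up to 29.4% and male control glands up to 11.5% chosen cells, and the share left out averaged 43.2% in double-mutant and 17.5% in control glands.

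An interferon-response group and part of the kallikreins differed by genotype in the chosen cells, with the limits set by batch given below. UMIs were summed per gland and fitted with sex and stage by edgeR's quasi-likelihood test, and all adjusted p-values of genes below come from such fits with Benjamini-Hochberg adjustment. In double-mutant glands 20 of 2564 genes differed (0.78% of those tested), 13 higher (0.507%) and 7 lower (0.273%). Of the interferon-response list, 8 of 20 genes had enough counts to be tested, and 6 were higher and none lower. Their median log2 fold change was 1.77 against -0.04 over all genes tested.

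Isg15, a ubiquitin-like antiviral protein, was at 5.57, 116 and 364 CPM (lowest, median and highest) in double-mutant and at 0, 17.6 and 50.2 CPM in control glands, a log2 fold change of 2.69 ± 0.47 (SE, adjusted p = 0.00170). Irf7, the transcription factor that amplifies type I interferon, was at 22.9, 66.2 and 234 CPM against 0, 9.82 and 13.9 CPM, with a log2 fold change of 2.29 ± 0.38 (adjusted p = 0.000990), and it was the 1 named gene of this comparison whose groups did not overlap. Ifi27l2a was at 420, 1620 and 3791 CPM against 106, 233 and 831 CPM, with a log2 fold change of 1.98 ± 0.31 (adjusted p = 0.000411). For Isg15 and Ifi27l2a the lowest double-mutant glands lay below the highest control glands.

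Irf1, an interferon-induced transcription factor, was higher by 1.55 ± 0.28 on the log2 scale (adjusted p = 0.00299), from a control median of 71.5 CPM to 309 CPM. Ifitm3, which blocks viral entry, was higher by 1.33 ± 0.29 (adjusted p = 0.0183), and Ifit1 by 2.32 ± 0.54 (adjusted p = 0.0329) at lower levels, 82.1 against 6.24 CPM in the median. The 2 listed genes that were tested and did not pass included Bst2, with a log2 fold change of 1.22 (adjusted p = 0.189). All 6 were higher in double-mutant glands in each of the 4 batches with both genotypes. With batch as a factor in those 16 glands, Isg15 kept an adjusted p of 0.0143, while Irf7 had 0.111, Ifi27l2a 0.0569, Irf1 0.0822 and Ifitm3 0.471 at log2 fold changes of 0.97 to 2.13.

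The whole interferon list summed to 1144 to 6724 CPM (median 3280) in double-mutant and 251 to 1390 CPM (median 565) in control glands. Immune markers, which carry interferon genes of their own, summed to 0 to 927 CPM (median 150.6) in the chosen cells of the 13 double-mutant and 0 to 291 CPM (median 91.4) in those of control glands. Endothelial markers summed to 0 to 221 CPM (median 55.3) against 0 to 97.0 CPM (median 17.2), and the part of either cell type in the difference was not tested. The interferon genes were not particular to the chosen cells. In the other cells of the same glands Isg15, Irf7, Ifi27l2a, Irf1, Ifitm3 and Ifit1 were higher too, by 0.89 to 2.13 on the log2 scale, and the difference between the effects did not pass the test for any of them (adjusted p = 0.367 to 0.996).

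Other genes that rose belonged to no single group. Clu, clusterin, one of the tumor markers of the study, rose from a median of 61.2 to 328 CPM (log2 fold change 1.79, adjusted p = 0.0484), and it rose in the other cells by 3.26. The call for Clu was lost without any 1 of 18 libraries, with adjusted p up to 0.0972, and it passed at P90 alone (log2 fold change 3.49) but not at P40 alone (0.81). Ly6a, the stem cell antigen Sca-1, rose by 1.01 from 207 to 594 CPM in the median (adjusted p = 0.0137), and the ribosomal protein genes Rps28 and Rpl38 by 1.43 and 0.79. In the other cells Ly6a, Rps28 and Rpl38 rose too, by 1.34, 1.29 and 0.95. The difference between the effects did not pass for any of them (adjusted p = 0.662 to 0.999). Ndufa2, a complex I subunit, rose by 0.63 (adjusted p = 0.0484), which was lost without any 1 of 17 libraries and was the only change among 81 tested genes of the nuclear respiratory complexes, whose list medians lay between 0.00 and 0.08. In the other cells the change of Ndufa2, -0.08, did not pass (adjusted p = 0.700), and neither did the difference between the effects (0.583). With batch as a factor none of these 5 calls held, at adjusted p = 0.0569 for Ly6a, 0.0701 for Rps28, 0.446 for Rpl38, 0.471 for Ndufa2 and 0.650 for Clu. Clu was lower in the double-mutant gland of batch 14 (115 CPM against a control mean of 159 CPM), and the other 4 genes were higher in each of 4 batches. Outside the rule for named genes, Ftl2 had the smallest adjusted p of the fit (1.2e-05), at a log2 fold change of 4.67 ± 0.59. Its medians were 61.1 CPM in double-mutant and 0 CPM in control glands, with overlap, and it rose in the other cells by 5.69. The difference between its effects did not pass (adjusted p = 0.964). Bcat2 rose by 1.11 (adjusted p = 0.0390).

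The genes that fell were led by kallikreins. Of 25 listed tissue kallikreins 13 were tested, 4 were lower and all 13 had a negative log2 fold change, with a median of -1.22. Klk1b5 was at 903, 1930 and 3860 CPM in double-mutant and at 1522, 5802 and 20889 CPM in control glands, a log2 fold change of -1.54 ± 0.31 (adjusted p = 0.0111). Klk1b21 and Klk1b8 fell by 1.44 each (adjusted p = 0.0111 and 0.0146), and Klk1b11 fell by 1.56 (adjusted p = 0.0390), a call that was lost without any 1 of 13 libraries. Ranges overlapped for all 4, with the high control glands above every double-mutant gland for Klk1b5, Klk1b8, Klk1b11 and Klk1b21. In the other cells these 4 genes fell as well, by 3.31, 2.77, 2.90 and 3.01 in that order. The difference between the effects passed for Klk1b5 (adjusted p = 0.0320) and not for Klk1b8, Klk1b11 and Klk1b21 (0.0727 to 0.289). The part of free RNA in these falls was not tested.

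The fall of the kallikreins differed by stage in size: at P90 alone the log2 fold changes of Klk1b5, Klk1b8 and Klk1b21 were -2.38, -2.35 and -2.14 (adjusted p = 0.0143, 0.00558 and 0.0200) and at P40 alone -0.67, -0.48 and -0.69 (adjusted p = 0.468 to 0.720), a difference that was not tested. With batch as a factor they were -0.75, -1.04 and -0.91 and did not pass (adjusted p = 0.446 to 0.576). Cldn10, a claudin of paracellular ion channels, fell by 1.28 (adjusted p = 0.0368), from a median of 169 to 27.9 CPM. In the other cells it fell by 1.11, from a median of 364 to 201 CPM. The difference between the effects did not pass for Cldn10 (adjusted p = 0.771), and the part of free RNA was not tested. Its call was lost without any 1 of 8 libraries (adjusted p up to 0.0684), with batch as a factor (0.0701), and at P40 alone and P90 alone (0.342 and 0.384). The duct ion transport list (17 tested), the transcription factors of ducts (11 tested) and the immediate early and stress genes (28 tested) held no call, and neither did the Wnt target list, of which 2 of 24 genes had enough counts to be tested. Acinar markers, at 0.396% to 13.7% of UMIs in the chosen cells of double-mutant and 0.471% to 16.1% in those of control glands, had 9 tested genes, no call and a median of -0.96. The mitochondrial limit, which left out more cells of double-mutant glands, bears on the count of calls: with those cells added it was 54. Without control P90 replicate 2 it was 13.

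**Figure D4:**
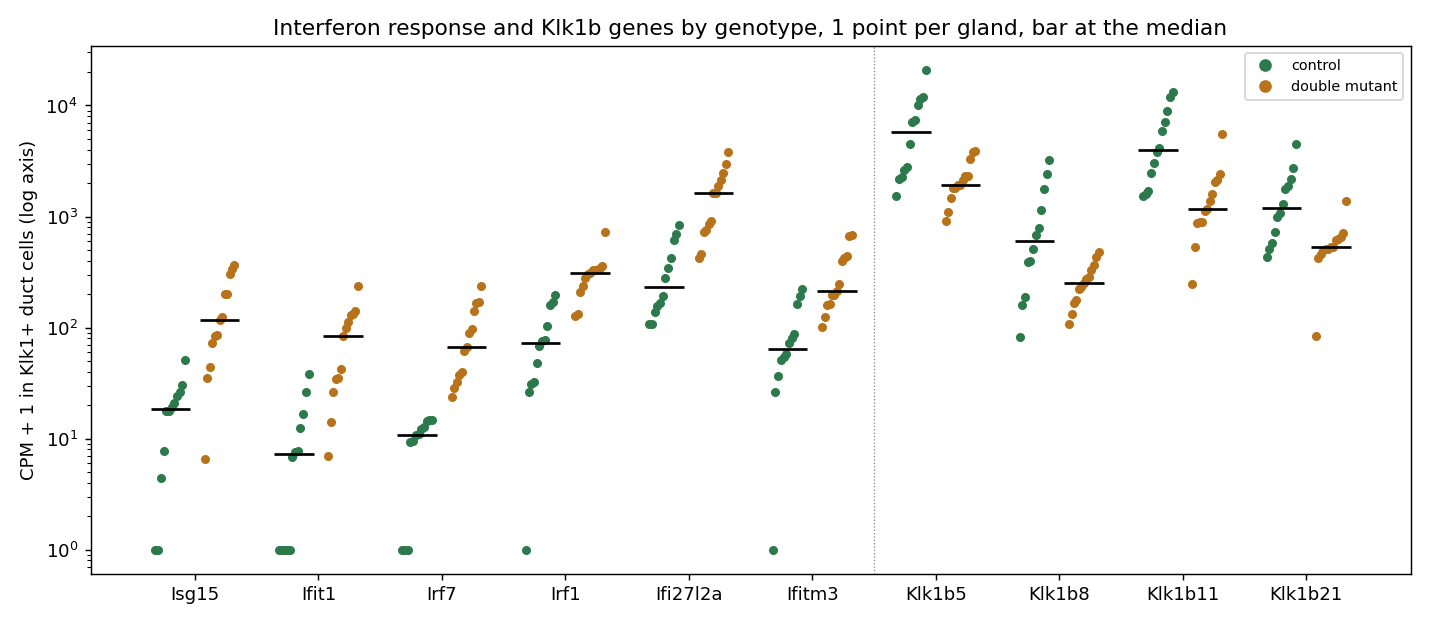
CPM + 1 (vertical log axis) in the Klk1+ duct cells for 6 interferon-response genes and 4 Klk1b genes, with 1 point for each of 12 control and 13 double-mutant glands and a bar at the median. Irf7 reached at most 13.9 CPM in control and at least 22.9 CPM in double-mutant glands, while the Klk1b genes overlapped, with medians lower in double-mutant glands.

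The genotype effect in the chosen cells was then compared with that in the rest of the gland, with the gland as a block. It differed for 12 of 11245 genes (0.107%), 5 toward higher (0.0445%) and 7 toward lower values (0.0622%) in the chosen cells. In the other cells, 2262 of 10010 genes differed by genotype (22.6%), 1478 higher (14.8%) and 784 lower (7.83%). The other cells are a mixture whose makeup differs between genotypes: their immune markers summed to 5.80 to 53.1 per 10000 UMIs in double-mutant and 0.342 to 9.95 in control glands.

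Most of these genes were higher in double-mutant glands in the other cells and low in the chosen cells. Ltf, lactoferrin, had a median of 178 CPM in the other cells of double-mutant glands and 0 CPM in control, while the chosen cells had medians of 2.78 and 0 CPM (difference of effects -5.28, adjusted p = 0.00603). Mgp, matrix Gla protein, rose from 15.5 to 170 CPM in the other cells and was at 13.9 and 4.62 CPM in the chosen cells of control and double-mutant glands (difference -2.99, adjusted p = 0.000890). Ctgf, Emp1, Cyba and Gdf15 also had lower effects in the chosen cells, by -3.36 to -1.82. All 7 genes were at means of at most 37.7 CPM in the chosen cells.

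In the opposite direction, Crisp3 fell by 1.90 on the log2 scale in the other cells and had a median of 4622 CPM in control and 7909 CPM in double-mutant chosen cells, whose effect of 0.22 did not pass the test (difference of effects 2.22, adjusted p = 0.0353). Klk1b5 fell in both, by 3.31 in the other cells and by 1.54 in the chosen cells (difference 2.08, adjusted p = 0.0320). Smim5, a small membrane protein gene, had medians of 73.4 and 88.6 CPM in the chosen cells and fell by 1.44 in the other cells (difference 1.41, adjusted p = 0.0304). Sult1e1 and Fgg, the remaining 2, were at mean levels of 3.79 and 10.5 CPM in the chosen cells. The genotype effect did not differ between males and females for any of 2779 genes by edgeR (0 called, 0%; 75 genes had an unadjusted p under 0.05, and the smallest adjusted p was 0.430).

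Sex separated kallikreins and a few secreted products in the chosen cells of control glands. In the fit with stage, 11 of 2701 genes differed (0.407%), 6 higher in males (0.222%) and 5 lower (0.185%). Of 13 tested kallikreins 3 were higher and none lower, with a median log2 fold change of 1.08 against -0.03 over all genes. Klk1b16 was at 1001, 2246 and 4190 CPM in males and at 127, 270 and 568.2 CPM in females, without overlap, a log2 fold change of 2.99 ± 0.27 (adjusted p = 9.83e-07).

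Klk1b11 was at 4181 to 13198 CPM in males and 1541 to 3828 CPM in females, again without overlap (1.79 ± 0.26, adjusted p = 0.000521). Klk1b9 overlapped between the sexes (1.59, adjusted p = 0.0400) and lost its call without any 1 of 8 libraries, with adjusted p up to 0.156. Bglap3, a relative of osteocalcin, was at 1518 to 3864 CPM in males and 619 to 1238 CPM in females (1.59 ± 0.21, adjusted p = 0.000158). Every named gene kept its direction in the 3 control batches with both sexes. The count of calls was 7 without control P40 replicate 3 and 17 without control P90 replicate 6.

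The kallikreins also differed by sex around the chosen cells: in the other cells Klk1b16 was at 1405 to 12583 CPM in males and 8.46 to 255 CPM in females, Klk1b11 at 1006 to 12156 and 86.4 to 736 CPM, and Klk1b9 at 2215 to 25074 and 54.2 to 859 CPM. The part of free RNA in these differences was not tested. Wfdc12, a whey acidic protein inhibitor, was at 1506 to 11673 CPM in males and 84.8 to 1263 CPM in females (3.67 ± 0.47, adjusted p = 0.000157), but at 8351 to 25861 and 1192 to 3536 CPM in the other cells of the same glands. Smgc, the submandibular gland protein C of female and newborn ducts, was at 0 to 164 CPM in males and 379 to 8411 CPM in females (adjusted p = 0.000376), and at 0 to 663 and 2946 to 45468 CPM in the other cells. For both genes the part of free RNA was likewise not tested.

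Scgb1c1 was lower in males (log2 fold change -2.04, adjusted p = 0.0309; lost without any 1 of 7 libraries, up to 0.121) and was well above the other cells in both sexes, at 33.8 to 176 against 0.884 to 29.5 CPM in males and 75.8 to 534 against 4.17 to 61.9 CPM in females. Ifi27l2a was lower in males by 1.66 (adjusted p = 0.0120; 0.0599 without control P40 replicate 3), at a median of 152 against 519 CPM. Cox8b, a complex IV subunit outside the rule for named genes, was at 0 to 33.4 CPM in males and 20.1 to 115 CPM in females (adjusted p = 0.0309). The other 80 tested genes of the nuclear respiratory complexes did not differ by sex, with list medians between -0.19 and -0.09. 2310057J18Rik was higher in males, at 627 to 9884 against 0 to 145 CPM, and Xist was at 0 CPM in all 6 male and at 196 to 295 CPM in all 6 female glands, as their labels require.

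**Figure D5:**
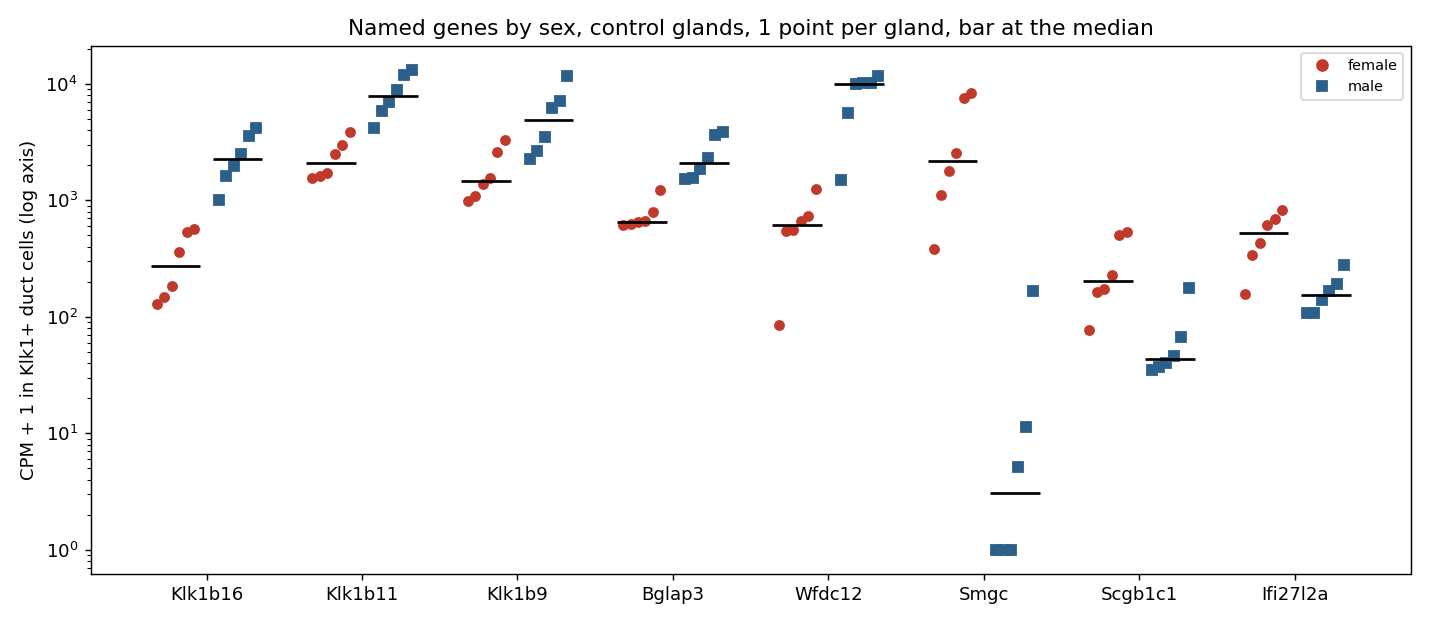
CPM + 1 (vertical log axis) in the Klk1+ duct cells of control glands for the 8 named genes of the sex comparison, with 1 point for each of 6 female and 6 male glands and a bar at the median. Klk1b16, Klk1b11, Bglap3 and Wfdc12 were higher in males and Smgc in females without overlap.

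Stage and batch cannot be told apart in control glands, and the comparison of P90 with P40 is given with that limit. With sex in the fit, 167 of 2701 genes differed (6.18%), 147 higher (5.44%) and 20 lower (0.74%) at P90. Clone or pseudogene names made up 67.7% of the genes called and 7.37% of those tested. Of 13 tested kallikreins 8 were higher at P90 and none lower, with a median log2 fold change of 1.24 against -0.08 over all genes.

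Klk1b4 was at 1658, 3915 and 6850 CPM at P90 and at 346, 705 and 1790 CPM at P40 (2.15 ± 0.29, adjusted p = 0.000140), and Klk1b8 at 513, 1451 and 3237 CPM against 81.7, 289 and 788 CPM (2.32 ± 0.36, adjusted p = 0.000279). Both ranges overlapped between the stages, and in the other cells the medians were 2044 and 447 CPM for Klk1b4 and 1086 and 394 CPM for Klk1b8. Stress and early response genes were higher at P90 for 3 of 27 tested: Hspa1b, a heat shock protein, at 209 to 789 against 29.2 to 130 CPM, Jund at medians of 714 against 134 CPM, and Nr4a1. Cebpb, a transcription factor, was at medians of 143 against 6.79 CPM, and Crisp1 at 91.4 to 276 against 5.84 to 66.7 CPM without overlap.

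Of 9 tested genes of the acinar list 4 were lower at P90. Dcpp1, Dcpp2 and Dcpp3, demilune cell and parotid proteins, had medians of 19785, 23926 and 18341 CPM at P40 and of 14.8, 8.31 and 0 CPM at P90 (adjusted p = 0.0116, 0.0102 and 0.00155). The paper places Dcpp1+ cells in a luminal group apart from acinar cells, and reports more of them at P40 than at P90. The P40 glands were split: replicates 1 and 5 were at 0 to 4.17 CPM for all 3 genes, within the range of P90, and the other 4 were at 15751 to 45234 CPM. Bpifa2, a salivary defence protein, had medians of 2809 and 0 CPM (adjusted p = 0.00205). In the other cells the medians of Dcpp3 were 43917 at P40 and 440 CPM at P90, and those of Bpifa2 4244 and 73.3 CPM, so both were lower at P90 around the chosen cells as well, and the part of free RNA was not tested. Folds are not given for these genes, because their fitted values depend on glands at 0. Slc26a2, a sulfate transporter, was at 25.1 to 53.7 CPM at P90 and 55.3 to 86.6 CPM at P40 without overlap (-1.05, adjusted p = 0.0346), with medians of 46.7 and 42.1 CPM in the other cells, and its call was lost without any 1 of 9 libraries. Pigr, the receptor that carries immunoglobulin A into saliva, had medians of 18.3 CPM at P90 and 141 CPM at P40 (-2.05, adjusted p = 0.0141; 0.104 in the weakest fit that left out 1 library). Sfxn1, Clcn3 and Mucl1 passed the test in all 12 glands but in 1, 2 and 4 of the 12 fits that left out 1 library.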

How the data were processed

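Per the labels and the methods, reads of both single-cell assays were aligned by the authors with STAR to mm10 inside Drop-seq tools. The deposited tables hold raw counts, UMIs by gene and barcode. They also deposited antibody tag counts per cell. Whether tag counts are UMIs or reads is not given in the sources used here. Of 26987 Drop-seq barcodes, those with 100 or more genes and under 15% mitochondrial UMIs were kept, and CITE-seq cells also needed fewer than 2500 genes. No doublet caller was run. The bulk libraries were not used here. The members, gene lists and tests were chosen with earlier results of these data known. Counts were summed per gland over glands with 10 or more chosen cells and fitted with edgeR 4.0.16 (quasi-likelihood test, TMM, filterByExpr, R 4.3.3), and DESeq2 1.42.0 was the other tool. The SE is the log2 fold change over the square root of F. The gland was the replicate, and the labels name 1 gland per library. Shares were compared by permutation (SciPy 1.17.1; 100000 resamples for genotype, all arrangements otherwise), adjusted by Benjamini-Hochberg over 4 tests. The threshold was 0.05. Named genes were the 10 highest and 10 lowest log2 fold changes past it at a mean of 50 CPM or more, without rule, sex chromosome, clone and mt- genes; Ftl2, Ifit1, Bcat2, Gm12421, Gm10260, Cox8b, 2310057J18Rik and Xist passed the test outside this rule and are named after their values were seen. Descriptions named the 20 most abundant genes and the 20 highest ratios at 100 CPM or more. Replicate numbers did not pair glands: 9 of 34 same-numbered pairs correlated above 0.1 (range -0.19 to 0.47). Promoters came from RefSeq. The scripts were tested on simulated data. Results for some genes and proteins are not reported here, though counts over all features include them.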

Additional observations from a re-analysis of the deposited data

Results flagged for a closer look

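Among 96 groups of 4 to 10 glands, 7 had 1 gland far from the others (chance flags about 1 in 20 groups). Control P40 replicate 1 had the highest share of chosen cells, 24.8%, with the next gland at 12.95%, and the highest mitochondrial share of its group, 8.75% of UMIs. Control P40 replicate 2 had the lowest Klk1 share of its group, 9.85% of UMIs. Double-mutant P40 replicate 3 had the highest Klk1b share, 3.23% of UMIs. On the log2(CPM + 1) scale, Irf1 was lowest in double-mutant P90 replicate 7 at 6.99, and Klk1b21 was highest in double-mutant P40 replicate 5 at 10.4 and lowest in double-mutant P90 replicate 5 at 6.38, 2 glands with 11 and 15 chosen cells.

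For 12 genes the genotype effect in the chosen cells differed from that in the other cells by the test of the difference itself. For those named here the log2 differences were 4.42 for Fgg, 4.18 for Sult1e1, 2.22 for Crisp3, 2.08 for Klk1b5 and 1.41 for Smim5, and -5.28 for Ltf, -3.36 for Gdf15, -2.99 for Mgp, -2.45 for Ctgf, -2.04 for Emp1 and -1.82 for Cyba. Fgg, Sult1e1 and Gdf15 averaged 10.5, 3.79 and 4.61 CPM in the chosen cells.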

How the results depend on the processing

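The 20 genotype calls became 40 with DESeq2, 72 without a filter on low counts, 7 in glands with at least 20 cells, 12 with sums thinned to the lowest total, 33 with the replicate block, 4 with batch as a factor, 4 at P40 alone and 11 at P90 alone. Alternatives chosen after seeing the data gave 54 calls with cells over the mitochondrial limit added and 7 without the 3 double-mutant glands of 15 or fewer chosen cells. Leaving out 1 gland gave 13 to 29. The 11 calls by sex became 17 with DESeq2, 42 without the filter, 5 with the replicate block and 4 in all glands, and 7 to 17 leaving out 1 gland. The 167 stage calls became 386 without the filter and 27 with thinned sums, 127 with the replicate block, and 134 to 204 leaving out 1 gland. The 12 genes that differed from the rest became 67 without the filter. The causes were not tested.

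For shares, the sex difference was -33.7 points among duct cells and -13.3 points without the mitochondrial limit (added after seeing the data), both past the threshold, and leaving out 1 gland gave -12.4 to -8.00, past it without control P90 replicate 1 or control P40 replicate 2 (adjusted p = 0.0346). The value among duct cells cannot be separated from the Egf limit, which barred Egf-high cells that stayed in the denominator. The stage difference in controls turned to 1.29 with thinned cells, 0.018 with 3 or more duct genes and 1.28 without the Egf limit, and ran from -3.73 to 2.38 leaving out 1 gland. The genotype difference ran from -4.66 to -1.79 and that of stage in double mutants from -6.01 to -2.11 leaving out 1 gland; the replicate block gave -4.02 points for genotype. Named genes kept direction and call in 449 of 571 settings by genotype, 142 of 175 by sex and 342 of 409 by stage, and none turned. Leaving out double-mutant P90 replicate 4 was not run for genes, since it was not in the fits. Values of rare genes are limited by the 12180 UMIs of the smallest gland.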
